A study of Mus musculus with 107 samples.

Results

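The VEGF family ligands are the secreted growth factors that bind the VEGF receptor tyrosine kinases, and their transcripts were followed over 12 mouse tumor models and 3 groups of tumors. The members were the rows named Vegfa, Vegfb, Vegfc and Pgf in the table of TPM, a transcript level scaled for length and library total, which made 4 genes of the 50686 measured. The rule matched gene names and set no threshold on a measured value. The samples were subcutaneous tumors grown from established mouse cell lines in mice of the matching strain, with RNA taken from whole tumor tissue. The Base group held 35 treatment-naive tumors of about 100 mm3, the NT group held 36 tumors without treatment at day 8, and the LEN group held 36 tumors at day 8 after lenvatinib (LEN) at 10 mg/kg by mouth each day for 7 days. LEN is a multi-kinase inhibitor that blocks the VEGF receptors and several other growth factor receptors. Each model had 3 tumors per group, except MC38 with 2 Base tumors, and each model came from 1 cell line.

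The models grown in BALB/cAnNCrlCrlj mice were BNL (BNL 1ME A.7R.1, liver), RAG and Renca (kidney), 4T1 and EMT6 (breast) and CT26 (CT26.WT, colon). MC38 (colon) and B16F10 (B16-F10, melanoma) grew in C57BL/6NCrl mice and LL2 (LL/2, lung) in C57BL/6JCrl mice. MBT2 (bladder) grew in C3H/HeNCrl, KLN205 (lung) in DBA/2NCrl and Hepa (Hepa 1-6, liver) in C57L/J. According to the study BNL and Hepa grew in male mice and the other models in female mice, so host sex differed with model. The study asked how the activity of LEN relates to the blood vessels of a tumor. For the ligands the design gives 3 comparisons, namely between models before treatment, between LEN and NT at day 8, and between NT and Base. The last compares later, untreated tumors with the small starting tumors, so time and tumor size cannot be told apart. The study reported that LEN slowed tumor growth, to a degree that varied between models. The labels give no tumor volume at day 8, so the part of tumor size in LEN minus NT was not tested. The study's methods name 2 sequencing platforms without saying which tumors ran on which, so the part of platform in any comparison was not tested.

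VEGF-A is the main growth factor for blood endothelium. It acts through Kdr, the principal signalling receptor, and binds Flt1, a receptor that also holds ligand back as a decoy. VEGF-B and placental growth factor (PlGF, the product of Pgf) bind Flt1 and not Kdr, while VEGF-C is made as a precursor, is cut by proteases and acts on Flt4 of lymphatic endothelium. In tumors VEGF-A is known as a target of the hypoxia-inducible factors (HIF), which act when oxygen is low.

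In the GRCm38 mouse genome Vegfa (ENSMUSG00000023951) lies on the minus strand at chr17:46016993-46032369 and Vegfb (ENSMUSG00000024962) on the minus strand at chr19:6982473-6987651. Vegfc (ENSMUSG00000031520) lies on the plus strand at chr8:54077606-54187096 and Pgf (ENSMUSG00000004791) on the minus strand at chr12:85166635-85177790. No other annotated gene overlapped any of these 4 spans. Vegfb had the neighbours Fkbp2 and Dnajc4 close by on its own strand.

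All 4 genes matched the RefSeq promoter table. The sequences below, for Vegfa, Vegfb and Vegfc, are the 250 bases before the RefSeq start in GRCm38.p6, read on the strand of the gene. The same window of Pgf, chr12:85177314-85177563, lies inside the span given above, in the transcribed part of a transcript that begins further upstream, and is described without its sequence. They are shown because the 4 genes moved differently beside HIF target genes, and the HIF core motif is short enough to look for. HIF binds ACGTG or GCGTG, and capitals mark each of these on either strand (CACGT or CACGC where the motif is on the other strand).
Vegfa chr17:46032378-46032627: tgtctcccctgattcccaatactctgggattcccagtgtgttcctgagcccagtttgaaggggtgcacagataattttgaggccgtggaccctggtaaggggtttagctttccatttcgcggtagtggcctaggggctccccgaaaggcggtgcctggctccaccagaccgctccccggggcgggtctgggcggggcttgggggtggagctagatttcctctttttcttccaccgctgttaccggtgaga
Vegfb chr19:6987652-6987901: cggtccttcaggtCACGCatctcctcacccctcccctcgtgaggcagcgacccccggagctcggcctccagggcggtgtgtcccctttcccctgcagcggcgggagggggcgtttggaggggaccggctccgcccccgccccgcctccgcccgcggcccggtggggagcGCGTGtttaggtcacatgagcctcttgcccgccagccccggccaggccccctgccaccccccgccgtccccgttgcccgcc
Vegfc chr8:54077282-54077531: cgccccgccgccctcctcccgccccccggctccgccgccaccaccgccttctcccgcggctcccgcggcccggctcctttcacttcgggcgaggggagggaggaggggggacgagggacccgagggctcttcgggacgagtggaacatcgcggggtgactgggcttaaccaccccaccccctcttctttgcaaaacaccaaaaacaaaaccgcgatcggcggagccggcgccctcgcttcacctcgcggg

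The search covered both strands of windows from 250 bases before to 50 bases after the RefSeq start. Vegfb had 2 matches to GCGTG, beginning at -237 and -81 from the start, and Pgf had 1 at -124. The windows of Vegfa and Vegfc held neither ACGTG nor GCGTG. Of 32544 windows from 26742 mouse genes, 44.0% held at least 1 of these motifs, 19.7% held ACGTG and 32.6% held GCGTG. Among 23 windows of 16 genes on the HIF target list used below, 21 held at least 1 of them, but these windows were also richer in G and C, with a median of 65.7% against 53% in all windows. All 4 ligand windows were rich in G and C, from 62% in Vegfa to 75.3% in Vegfb, all above the median of all windows. GGGCGG, the core of a GC box, occurred 4 times in Vegfb and 2 times in each of the others, and 35.9% of all windows held it. None of the 4 held TATAAA, which 13.6% of all windows held. A match is only a run of letters in the window, and the absence of one says nothing of sites elsewhere. Vegfa and Pgf each had 2 windows in the table, of which the one nearest the gene's annotated start was used.

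The TPM of a tumor summed to 999999 to 1000001, and this unit keeps no record of depth, so no counting error is given. The share of TPM in protein-coding genes ran from 27.5% in 1 4T1 LEN tumor to 66.6% in 1 EMT6 LEN tumor, with a median of 49.7% in Base, 51.8% in NT and 52.7% in LEN. For every tumor the most similar other tumor was of the same model. B16F10 carried the melanocyte genes Dct at 2339 TPM and Pmel at 1619 TPM in Base, and Hepa carried Alb, the liver albumin gene, at 2329 TPM. KLN205 carried the squamous keratins Krt5 at 659 TPM and Krt14 at 323 TPM, and Renca and RAG the kidney factor gene Pax8 at 57.6 and 22.6 TPM. In BNL Base no tumor exceeded 0.09 TPM for Alb, Apoa1 or Ttr. The distal gut factor genes Cdx1 and Cdx2 were near 0 in CT26 and MC38, the lung markers Nkx2-1 and Sftpc in LL2 and KLN205, and the uroplakins in MBT2. Skeletal muscle markers (Ckm, Acta1, Myh4 and Tnnt3) summed to 0.14 to 564 TPM in Base, 1.06 to 133 TPM in NT and 1.02 to 1940 TPM in LEN, with the 3 BNL LEN tumors at 1353 to 1940 TPM. Which cells carried these transcripts was not tested.

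Vegfa was the most abundant ligand transcript and Vegfb came next. Mean levels over all tumors were 119.9 TPM for Vegfa, 35.8 TPM for Vegfb, 5.71 TPM for Pgf and 4.95 TPM for Vegfc. Vegfa was the highest of the 4 in 101 tumors, and Vegfb in the other 6. By mean level Vegfa ranked 571 and Vegfb 2794 among 13282 protein-coding genes with a mean of at least 1 TPM. Vegfa made up a median of 68.9% of the summed TPM of the 4 ligands in Base, 64.8% in NT and 72.4% in LEN. The median share of Vegfb was 28.3%, 29.2% and 21.1% in the same order, that of Pgf 2.85%, 3.23% and 2.30%, and that of Vegfc 2.32%, 2.49% and 2.10%. The exception for Vegfc was BNL, where it reached 25.4% in 1 NT tumor. Vegfd, the remaining family ligand of mammals and a relative of Vegfc that also binds Flt4, averaged 9.07 TPM and ran from 0.66 TPM in B16F10 to 19.0 TPM in LL2 in Base.

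**Figure D1:**
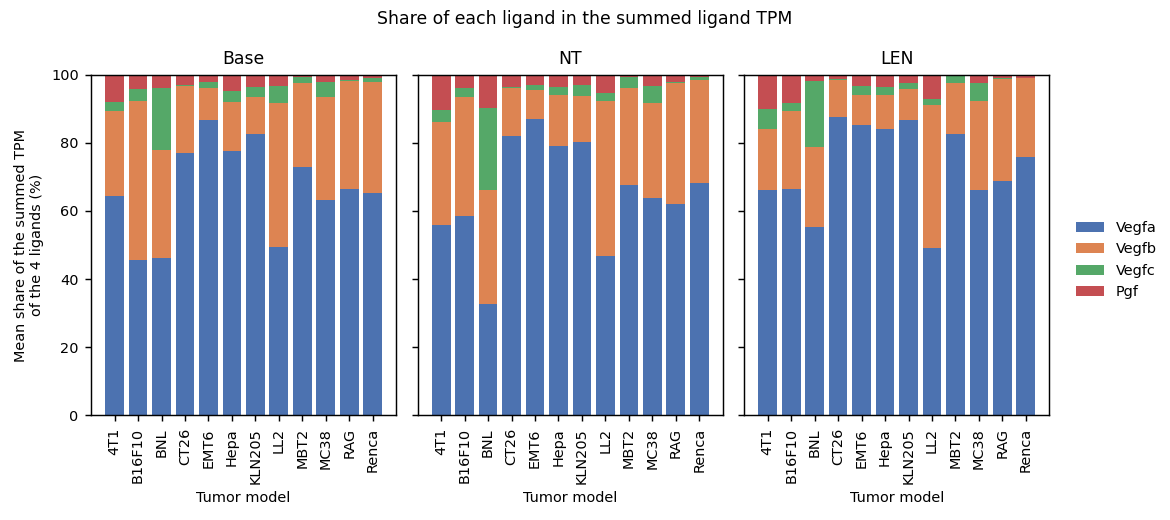
Mean share of each ligand in the summed TPM of Vegfa, Vegfb, Vegfc and Pgf (%, stacked bars from 0) by model, with 1 panel each for Base, NT and LEN. Vegfa is the largest segment in most bars, B16F10 and LL2 have large Vegfb segments, and Vegfc is a visible share in BNL.

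In the 35 treatment-naive tumors each of the 4 ligands differed between models (moderated F test of 11 contrasts in limma with Benjamini-Hochberg adjustment, adjusted p = 2.65e-07 for Vegfa, 4.6e-13 for Vegfb, 5.53e-13 for Vegfc and 1.45e-06 for Pgf). Of 17542 genes tested, 93.6% passed the same test, so a difference between models was the rule in this table.

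Vegfa was highest in EMT6, at 208.05, 177.79 and 176.39 TPM in the 3 Base tumors, and lowest in BNL, at 43.16, 33.57 and 27.93 TPM. The mean was 187 ± 17.9 TPM in EMT6 against 34.9 ± 7.70 TPM in BNL (SD, n = 3 each), a ratio of 5.37. All EMT6 tumors lay above every tumor of the next model, MBT2. Between them the means fell from MBT2 (136 ± 14.8 TPM) through Hepa, CT26, KLN205, RAG, Renca, 4T1, B16F10 and MC38 to LL2 (56.7 ± 21.3 TPM). Below EMT6 no model stood clear of the next in the order, so 10 of the 11 neighbouring pairs overlapped. In TPM CT26 had the widest spread, with 1 tumor at 162.13 TPM and the others at 88.99 and 84.93 TPM. On the log2 scale its SD of 0.516 was close to those of 4T1 (0.527) and LL2 (0.517).

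Vegfb followed another order, and its spread on the log2 scale within a model was smaller than that of Vegfa in 11 models, the exception being RAG. B16F10 was highest, at 69.55, 63.37 and 69.50 TPM, and KLN205 was lowest, at 14.60, 12.13 and 14.38 TPM. The mean was 67.5 ± 3.55 TPM in B16F10 and 13.7 ± 1.37 TPM in KLN205, a ratio of 4.92. LL2, RAG and MBT2 followed at about 46 TPM and overlapped each other, Renca was clear of its neighbours in the order at 38.1 ± 2.68 TPM but within the range of the RAG tumors (33.77, 59.58 and 44.53 TPM), and MC38, CT26, 4T1, BNL, Hepa and EMT6 ran from 27.2 to 20.1 TPM. Here 4 of 11 neighbouring pairs did not overlap. EMT6, highest in Vegfa, was the second lowest model in Vegfb.

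Vegfc spanned the widest range. The Base tumors of BNL held 12.43, 11.82 and 16.07 TPM, above every tumor of every other model, while RAG held 0.55, 0.59 and 0.29 TPM and CT26 held 0.50, 0.62 and 0.40 TPM. The mean in BNL, 13.4 ± 2.30 TPM, was 28.2 times that in RAG, 0.477 ± 0.163 TPM. From LL2 at 5.50 TPM down to 4T1 at 2.75 TPM, 8 models formed a run in which each overlapped the next, and Renca stood between that run and the lowest models at 1.37 ± 0.469 TPM. BNL was thus lowest in Vegfa and highest in Vegfc.

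Pgf had no model that stood clear of its neighbour. Its Base means ran from 8.60 ± 3.26 TPM in 4T1 and 7.04 ± 2.10 TPM in Hepa to 1.59 ± 0.686 TPM in MBT2 and 1.2 ± 0.287 TPM in Renca, a ratio of 7.19, and all 11 neighbouring pairs overlapped. In 4T1 the 3 tumors held 11.62, 5.14 and 9.05 TPM.

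**Figure D2:**
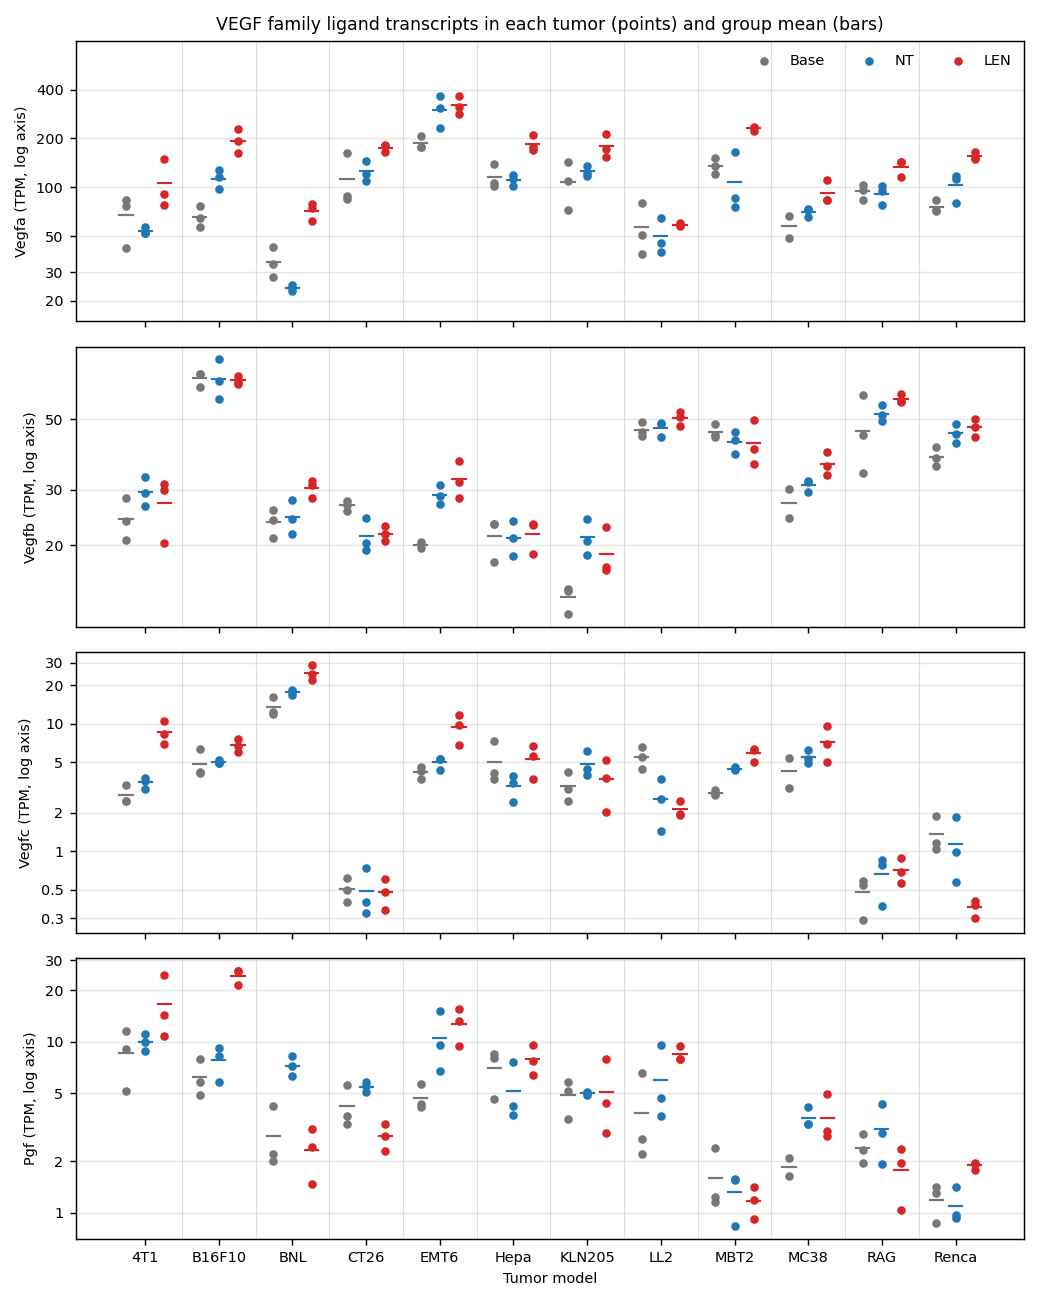
TPM (log axis) of Vegfa, Vegfb, Vegfc and Pgf in each tumor (points) by model, with Base in gray, NT in blue and LEN in red and each group mean as a bar. The red points of Vegfa lie above the blue ones without overlap in 10 models, and those of Pgf go up in B16F10 and down in BNL.

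Vegfa was higher with LEN than in NT tumors in all 12 models as deposited, and in 11 after rescaling each tumor to its protein-coding total, where EMT6 differed by -0.02. The rise averaged over the 12 models was 0.67 ± 0.06 on the log2(TPM + 1) scale (SE, adjusted p = 8.63e-14, limma fitted to 72 tumors with Benjamini-Hochberg adjustment). The SE and p of this and the other means over models come from the spread of tumors within groups, not from the spread between models. The median over tumors was 99.4 TPM in NT and 158 TPM in LEN. Of the 17351 genes tested, 13.7% were called higher and 9.87% lower in this comparison. That is 2371 higher and 1712 lower, which became 2275 and 3160 after rescaling each tumor to its upper quartile and 2524 and 2807 after rescaling to the protein-coding total. All 4 ligands passed the filter on low values. Bulk tumor RNA cannot tell a change in the number of cells of a type from a change in RNA per cell.

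BNL showed the largest Vegfa difference. The BNL NT tumors held 22.88, 25.19 and 24.03 TPM and the LEN tumors 61.79, 74.86 and 78.66 TPM. Every LEN tumor was more than any NT tumor, and in the 6 tumors of this model the rise was 1.53 ± 0.10 (log2, SE, adjusted p = 0.00011, limma). In that model 26.3% of genes were called higher. Skeletal muscle markers summed to 25.4 to 93.7 TPM in BNL NT and to 1353 to 1940 TPM in BNL LEN, and their part in the BNL values was not tested. Over the 10 models other than BNL and B16F10, where these markers were also higher with LEN, the mean Vegfa rise was 0.57 (adjusted p = 4.43e-09, limma), with all 10 higher.

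B16F10 held 97.44, 127.04 and 115.24 TPM of Vegfa in NT and 161.69, 193.48 and 227.32 TPM in LEN. Renca held 116.66, 79.67 and 113.23 TPM in NT and 151.75, 165.67 and 149.47 TPM in LEN. In both, every LEN tumor was above every NT tumor. The differences within these models were 0.77 ± 0.15 in B16F10 (adjusted p = 0.0214, limma) and 0.61 ± 0.15 in Renca (adjusted p = 0.0416), where 8.57% and 4.91% of genes were called higher. Each of these 2 calls was lost in 4 of the 6 fits that left out 1 tumor. Muscle markers summed to 1.06 to 15.4 TPM in B16F10 NT and 105 to 166 TPM in B16F10 LEN.

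MBT2 had the next largest difference after BNL, with NT tumors at 85.62, 75.89 and 164.09 TPM and LEN tumors at 236.22, 223.78 and 232.16 TPM. 4T1 held 57.34, 52.66 and 52.38 TPM in NT and 77.44, 90.48 and 149.73 TPM in LEN. Hepa held 119.84, 101.40 and 112.24 TPM in NT and 170.43, 176.36 and 210.68 TPM in LEN. In these models the groups did not overlap, but the tests within them gave adjusted p = 0.147, 0.736 and 0.0693 (limma), with at most 0.0423% of genes called higher in any of them. In the fit over all models, which shares the spread between tumors, the differences of all of these passed, with adjusted p = 0.00011 in MBT2, 0.0014 in 4T1 and 0.0106 in Hepa. That fit called 0.836%, 2.81% and 8.75% of genes higher in the same order of models.

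In KLN205 the Vegfa levels were 123.10, 135.86 and 117.39 TPM in NT and 213.25, 153.53 and 172.92 TPM in LEN. In CT26 they were 121.65, 146.08 and 109.12 TPM in NT and 165.87, 178.59 and 181.09 TPM in LEN. In RAG they were 77.69, 94.58 and 102.21 TPM in NT and 143.19, 115.43 and 142.84 TPM in LEN. The LEN tumors again lay above the NT tumors in each, with differences of 0.51 ± 0.13, 0.49 ± 0.12 and 0.55 ± 0.14, none of which passed within its model. In MC38 the NT tumors held 65.60, 73.49 and 72.19 TPM and the LEN tumors 83.32, 111.35 and 83.30 TPM, a difference of 0.38 ± 0.12 that did not pass.

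The groups overlapped in EMT6 and LL2. EMT6 tumors held 307.30, 363.81 and 230.82 TPM in NT and 282.99, 363.52 and 311.40 TPM in LEN, the highest Vegfa levels of both arms. LL2 tumors held 39.91, 64.86 and 45.31 TPM in NT and 60.55, 58.62 and 57.53 TPM in LEN. Their differences were 0.10 ± 0.17 and 0.26 ± 0.17. In the 9 models other than BNL, B16F10 and Renca at most 0.819% of genes were called higher within the model.

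Vegfa was 1 of only 4 genes, 0.0231% of the 17351 tested, whose LEN tumors lay above the NT tumors without overlap in at least 10 models. The others were Ndrg1 and P4ha1, which are on the HIF target list, and Mxd1, which encodes a partner of Max that opposes Myc. These names were chosen after their values were seen. The Vegfa difference itself varied between models (F test of 11 contrasts in limma, adjusted p = 0.00165), as did 35.3% of genes. Without BNL this F test gave adjusted p = 0.105.

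**Figure D3:**
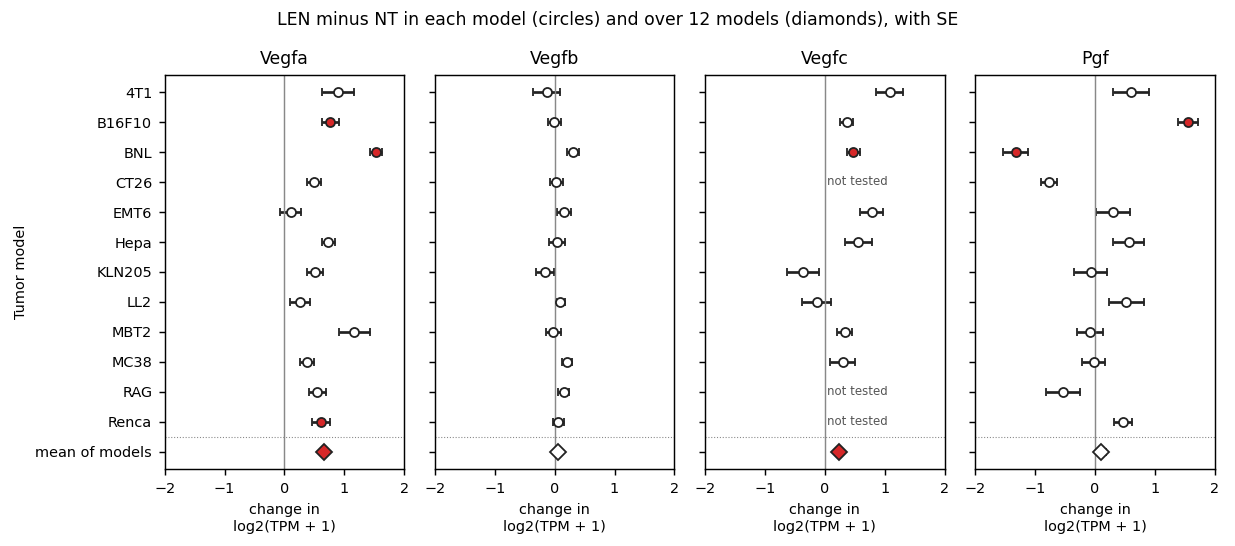
LEN minus NT in log2(TPM + 1) for each ligand within each model (circles) and averaged over the 12 models (diamonds), with SE bars and filled markers where adjusted p is under 0.05. Every Vegfa point lies right of 0 (11 of 12 do after protein-coding rescaling), while the Pgf points spread from -1.33 in BNL to 1.55 in B16F10.

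Vegfb did not pass in the mean over models. It differed by 0.06 ± 0.04 (SE, adjusted p = 0.258, limma), was higher in 8 models and lower in 4, and was called within no model. With a filter of 5 TPM it was called higher within 1 model. Medians over tumors were 31.3 TPM in NT and 34.4 TPM in LEN. The LEN tumors lay above the NT tumors without overlap in 3 models, which 21.5% of genes reached or passed. The F test of a difference between models gave adjusted p = 0.421.

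Vegfc rose with LEN by 0.23 ± 0.06 on average (SE, adjusted p = 0.00256, limma), higher in 8 models and lower in 4, and the difference varied between models (F test, adjusted p = 0.000218). The SE and p of this mean do not measure that spread between models. With BNL and B16F10 left out the mean was 0.20 with adjusted p = 0.0525, and without 4T1 it was 0.16 with adjusted p = 0.0604. With a pseudocount of 0.1 the adjusted p was 0.0568. The LEN tumors lay above the NT tumors without overlap in 5 models and below them in 1, and 4.25% of genes were above in at least 5.

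In BNL, Vegfc held 18.42, 16.91 and 17.74 TPM in NT and 21.84, 28.81 and 24.74 TPM in LEN, a rise of 0.48 ± 0.11 (adjusted p = 0.0153, limma) that did not pass in the fit over all models (adjusted p = 0.0907) and was lost in 1 of the 6 fits that left out 1 tumor (adjusted p = 0.0517). After rescaling to the protein-coding total the BNL difference was 0.35 with adjusted p = 0.0710, the protein-coding share being 54.3% to 57.4% in NT and 60.2% to 62.0% in LEN. The median of all genes in BNL moved by 0.17 as deposited. In 4T1 the NT tumors held 3.53, 3.08 and 3.79 TPM and the LEN tumors 6.89, 10.55 and 8.26 TPM. In log2(TPM + 1) that was the largest difference of any model, 1.08 ± 0.22. It did not pass within 4T1 (adjusted p = 0.613, limma). In the fit over all models it passed (adjusted p = 0.0005), and 2.81% of genes were called higher in 4T1 there. By mean TPM the 4T1 rise, from 3.47 to 8.57 TPM, was smaller in proportion than a fall in Renca, from 1.14 to 0.363 TPM. EMT6 showed 4.33, 5.34 and 5.26 TPM in NT and 11.66, 9.82 and 6.87 TPM in LEN, with adjusted p = 0.112 within the model and 0.0280 in the fit over all models, where 1.97% of genes were called higher in EMT6.

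Renca went the other way, with 1.87, 0.58 and 0.98 TPM of Vegfc in NT and 0.30, 0.41 and 0.38 TPM in LEN. CT26 and RAG stayed under 1 TPM in all 6 day 8 tumors. Vegfc averaged under 1 TPM in the day 8 tumors of these 3 models and was not tested within them. Renca was also the model with the most Vegfd at day 8, at 32.27, 21.24 and 28.54 TPM in NT and 49.93, 53.25 and 46.24 TPM in LEN, a rise of 0.86 within the model (adjusted p = 0.0125, limma). Over all models Vegfd rose by 0.17 ± 0.05 (adjusted p = 0.00655), higher in 6 models and lower in 6, but with a pseudocount of 0.1 the adjusted p was 0.143.

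Pgf moved in opposite directions in B16F10 and BNL. B16F10 tumors held 5.85, 9.25 and 8.26 TPM in NT and 21.44, 25.90 and 26.02 TPM in LEN, a rise of 1.55 ± 0.16 (adjusted p = 0.00355, limma), with 8.57% of genes called higher in B16F10. BNL tumors held 8.23, 7.21 and 6.31 TPM in NT and 1.48, 2.44 and 3.11 TPM in LEN, a fall of 1.33 ± 0.20 on the log2 scale (adjusted p = 0.00371), with 5.21% of genes called lower in BNL. Both calls held whichever tumor was left out, but with no filter on low values the B16F10 difference gave adjusted p = 0.0531.

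The average Pgf difference over the 12 models was 0.10 ± 0.08 (adjusted p = 0.395, limma), with 6 models higher and 6 lower. It was 0.23 without BNL (adjusted p = 0.0427) and -0.033 without B16F10 (adjusted p = 0.835). The difference between models passed the F test (adjusted p = 2.48e-06), and without BNL and B16F10 it gave adjusted p = 0.0577. In CT26 the NT tumors held 5.50, 5.85 and 5.09 TPM and the LEN tumors 2.83, 3.31 and 2.31 TPM, which did not overlap, with a difference of -0.77 ± 0.13 that did not pass within CT26 (adjusted p = 0.257). Renca was the second model with every LEN tumor above every NT tumor, at 0.97, 0.93 and 1.41 TPM in NT and 1.93, 1.97 and 1.79 TPM in LEN. At 2 models above without overlap Pgf was among the 42% of genes that reached this.

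Most receptors of these ligands were lower with LEN. Of 5 receptor and co-receptor genes, 4 fell and 1 rose with LEN in the mean over models, all by limma. Flt4, the receptor of VEGF-C and VEGF-D, fell by 0.74 ± 0.04 (adjusted p = 1.1e-20) and Kdr by 0.71 ± 0.05 (adjusted p = 3.6e-16), the latter lower in all 12 models. Flt1 fell by 0.43 ± 0.07 (adjusted p = 7.7e-07) and Nrp1, a co-receptor of VEGF-A, by 0.32 ± 0.04 (adjusted p = 1.3e-07), whereas Nrp2, a co-receptor of VEGF-C, rose by 0.14 ± 0.04 (adjusted p = 0.012). Within BNL, Kdr fell by 1.09 and Flt4 by 1.66 while Flt1 rose by 1.13. Within B16F10, Flt1, Kdr and Flt4 fell by 1.2, 1.16 and 0.74. Within Renca, Flt1, Kdr, Flt4 and Nrp1 fell by 1.66, 1.22, 1.37 and 1.49.

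Blood endothelial markers fell alongside the receptors that endothelium carries. All 6 tested were lower, with a median of -0.93 against -0.0019 for all genes. The largest falls were in the endothelial cadherin Cdh5, which fell by 1.17, the tight junction gene Cldn5, by 1.09, and Emcn, by 1.00, and the smallest were in Eng, by 0.28, Pecam1, by 0.72, and Tie1, by 0.85. Their sum ran from 44.0 to 201 TPM in NT and from 18.1 to 109 TPM in LEN. The part of vessel content in the receptor values was not tested.

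Genes that prepare VEGF-C for its receptor rose in part. Ccbe1, a secreted cofactor of VEGF-C cleavage, rose by 0.23 ± 0.06 (adjusted p = 0.0011, limma), the protease Furin by 0.21 ± 0.03 (adjusted p = 1.3e-06) and the protease Pcsk5 by 0.21 ± 0.07 (adjusted p = 0.023). Adamts3, which makes the activating cut, and Pcsk7 differed by 0.02 and 0.05 and did not pass.

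HIF target genes rose broadly with LEN. Of 17 tested, 16 rose and none fell, with a median of 0.41. The largest rises were in the oxygen-sensing hydroxylase gene Egln3 (0.69 ± 0.07), the glucose transporter gene Slc2a1 (0.64 ± 0.07) and the oxidoreductase gene Ero1l (0.62 ± 0.08), close to that of Vegfa. The smallest were in Eno1 (0.22) and Pfkfb3 (0.21), and Pfkfb4 did not pass (0.05). By model the list's median difference was 0.67 in Renca, where 13 of the 17 were called higher, 0.51 in BNL with 10 and 0.44 in B16F10 with 8. It was 0.03 in 4T1 and -0.01 in LL2. The median of all genes was -0.19 in 4T1, -0.13 in LL2, 0.17 in BNL, 0.02 in B16F10 and -0.04 in Renca.

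Of 11 other angiogenic growth factors tested, 1 rose and 3 fell with LEN. Pdgfa, which encodes a PDGF chain, rose by 0.26, and the differences of Cxcl12 (0.20) and Fgf1 (0.14) did not pass. Apln, which encodes apelin and is expressed by growing vessels, fell by 0.48, Angpt2, a Tek ligand released by endothelium, by 0.39, and Pdgfb, which recruits pericytes, by 0.19.

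Markers of other cells also moved with LEN. All 4 neutrophil markers rose, led by S100a9 (0.90) and S100a8 (0.73), and their sum ran from 1.22 to 155 TPM in NT and from 10.0 to 291 TPM in LEN. All 4 T cell markers rose (median 0.34), as did all 4 skeletal muscle markers (median 1.14). Of 4 macrophage markers 3 fell, with Mrc1 at -0.53, and of 6 fibroblast and pericyte markers 4 fell, with Rgs5 at -0.94 and Acta2 at -0.54. Among lymphatic endothelial markers Pdpn rose by 0.35, Lyve1 fell by 0.62 and Prox1 did not pass. Of the fat cell markers Adipoq rose and Fabp4 fell, and of 3 keratinocyte markers Krt14 rose. Krt14 was itself at 323 TPM in KLN205 and 31.5 TPM in 4T1 in Base. The part of all these markers in the ligand values was not tested.

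**Figure D4:**
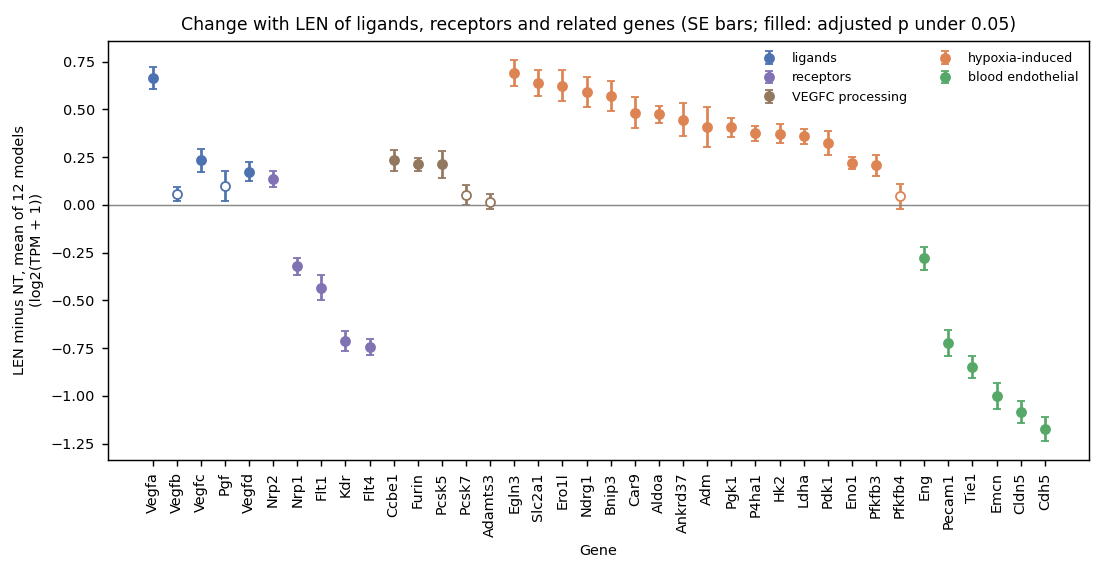
LEN minus NT averaged over the 12 models, in log2(TPM + 1) with SE bars, for the ligands with Vegfd, receptors, VEGFC-processing genes, hypoxia-induced HIF target genes and blood endothelial markers, filled where adjusted p is under 0.05. Vegfa sits at the level of the highest HIF target genes while Kdr and Flt4 are at -0.71 and -0.74.

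The NT tumors at day 8 were also compared with Base. This comparison shares the NT tumors with the one above. Pgf rose by 0.32 ± 0.08 in the mean over models (adjusted p = 0.0024, limma fitted to 71 tumors), higher in 9 models and lower in 3, and Vegfb by 0.14 ± 0.04 (adjusted p = 0.0042), higher in 8 and lower in 4. Vegfa differed by 0.10 ± 0.07 (adjusted p = 0.303), with 6 models each way, and Vegfc by 0.07 ± 0.06 (adjusted p = 0.421). Of the 17428 genes tested, 17% were called higher and 11.5% lower. The counts were 2971 higher and 2002 lower, which became 1421 and 3519 with upper-quartile rescaling and 1203 and 3844 with protein-coding rescaling. With the latter the Vegfb difference was 0.075 (adjusted p = 0.0745), and it was 0.10 without EMT6 (adjusted p = 0.0611) and 0.095 without KLN205 (adjusted p = 0.0681).

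For each ligand the NT minus Base difference varied between models, as it did for 66.5% of genes. The F test gave adjusted p = 0.0158 for Vegfa, 0.00102 for Vegfb, 0.000699 for Vegfc and 0.0249 for Pgf. Without BNL it gave 0.0551 for Vegfa and 0.131 for Pgf, and without B16F10 0.0730 for Vegfa. After protein-coding rescaling it gave 0.0910 for Vegfb and 0.128 for Pgf, and after upper-quartile rescaling 0.104 for Pgf.

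Pgf in BNL held 2.00, 2.20 and 4.24 TPM in Base and 8.23, 7.21 and 6.31 TPM in NT, a rise of 1.15 ± 0.23 (adjusted p = 0.012, limma), and 23.6% of genes were called higher in BNL. Pgf in the BNL LEN tumors, at 1.48 to 3.11 TPM, thus lay near the Base tumors and below the NT tumors. In EMT6, Pgf held 5.68, 4.32 and 4.17 TPM in Base and 15.10, 9.65 and 6.75 TPM in NT, a rise of 0.95 ± 0.26 (adjusted p = 0.0427), with 17.2% of genes called higher in EMT6. The EMT6 call was lost in 5 of the 6 fits that left out 1 tumor.

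Vegfa moved in opposite directions in EMT6 and BNL. The EMT6 tumors went from 208.05, 177.79 and 176.39 TPM in Base to 307.30, 363.81 and 230.82 TPM in NT, a rise of 0.66 ± 0.17 (adjusted p = 0.0322, limma). The BNL tumors went from 43.16, 33.57 and 27.93 TPM to 22.88, 25.19 and 24.03 TPM, a fall of 0.50 ± 0.15 on the log2 scale (adjusted p = 0.0480), with 4.71% of genes called lower in BNL. Each call was lost in 5 of the 6 fits that left out 1 tumor, and the BNL difference did not pass in the fit over all models (adjusted p = 0.127). B16F10 showed the largest Vegfa difference, 0.77 ± 0.14, from 76.74, 65.07 and 56.60 TPM in Base to 97.44, 127.04 and 115.24 TPM in NT without overlap, and did not pass within the model (adjusted p = 0.0707).

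Vegfb rose in EMT6 and KLN205. The EMT6 tumors went from 19.57, 20.20 and 20.53 TPM in Base to 27.04, 31.08 and 28.59 TPM in NT, by 0.50 ± 0.09 (adjusted p = 0.0101, limma). The KLN205 tumors went from 14.60, 12.13 and 14.38 TPM to 24.25, 18.69 and 20.71 TPM, by 0.59 ± 0.12 (adjusted p = 0.0171), and 28.3% of genes were called higher in KLN205. The groups did not overlap in either model. The KLN205 call was lost in 1 of the 6 fits that left out 1 tumor (adjusted p = 0.0594).

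The protein-coding share moved in the same tumors, from 43.5% to 45.9% in EMT6 Base to 57.3% to 61.0% in EMT6 NT, and from 39.6% to 42.3% to 50.8% to 52.7% in KLN205. After rescaling to the protein-coding total Vegfb differed by 0.12 (adjusted p = 0.33) in EMT6 and by 0.28 (adjusted p = 0.42) in KLN205. In EMT6 the rescaled differences were 0.26 (adjusted p = 0.31) for Vegfa and 0.61 (adjusted p = 0.13) for Pgf. After this rescaling Vegfb was called higher in 1 model, neither EMT6 nor KLN205, and Vegfa in 1 model other than EMT6. The rescaling took the median of all genes from 0.05 to -0.29 in EMT6 and from 0.28 to -0.02 in KLN205.

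Vegfc was called within no model with the filter of 1 TPM. With a filter of 5 TPM it was tested in 1 model and called higher there. In BNL it rose by 0.38 ± 0.12 with the filter of 1 TPM (adjusted p = 0.0550, limma). Its largest difference was in LL2, with 4.39, 5.49 and 6.63 TPM in Base and 1.44, 3.66 and 2.57 TPM in NT, where the groups did not overlap and the difference was -0.91 ± 0.26 (adjusted p = 0.0856, limma). In the fit over all models this LL2 difference passed (adjusted p = 0.0012), as did 3.72% of genes in the same direction. MBT2 went the other way, from 2.80, 2.75 and 3.04 TPM to 4.55, 4.4 and 4.34 TPM. NT tumors lay above Base tumors without overlap in 2 models for Vegfa and Vegfc, which 53.7% of genes reached, and in 3 models for Vegfb and Pgf, which 32.4% reached. These counts were thus shared by a large part of all genes.

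**Figure D5:**
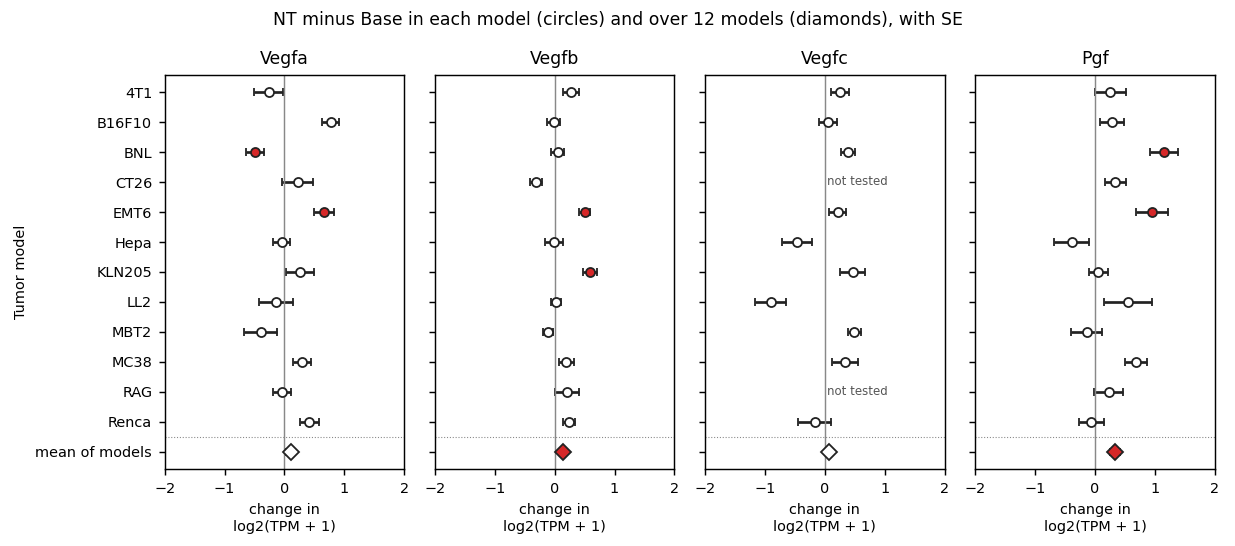
NT minus Base in log2(TPM + 1) for each ligand within each model (circles) and averaged over the 12 models (diamonds), with SE bars, filled where adjusted p is under 0.05 and marked where not tested. Vegfa has points on both sides of 0, and the filled Pgf points are BNL at 1.15 and EMT6 at 0.95.

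Of the 5 receptor and co-receptor genes 2 fell and none rose between Base and NT. Flt1 fell by 0.19 ± 0.05 (adjusted p = 0.0071, limma) and Kdr by 0.18 ± 0.06 (adjusted p = 0.016), while Flt4 (0.07), Nrp1 (-0.04) and Nrp2 (-0.04) did not pass. Of the 5 VEGFC-processing genes Pcsk5 fell by 0.35, and Adamts3, Ccbe1, Furin and Pcsk7 did not pass. Vegfd fell by 0.26 ± 0.07 (adjusted p = 0.0027), higher in 2 models and lower in 10.

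HIF target genes rose here too. Of 17 tested, 14 rose, 1 fell and the median was 0.32, with the largest rises in the mitophagy gene Bnip3 (0.51), the vasoactive peptide gene Adm (0.50) and Ero1l (0.49). Pfkfb4 fell by 0.21 and Pfkfb3 (-0.06) did not pass. The list's median was 1.11 in EMT6, with 14 genes called higher, and 0.84 in Renca. Among the angiogenic factors Apln (0.39) and Pdgfa (0.26) rose, and Cxcl12 and Fgf2 fell by 0.75 and 0.24. Of 7 blood endothelial markers 4 fell, with a median of -0.21. All 4 muscle markers and all 4 fat cell markers fell, with medians of -1.28 and -0.84. Of the lymphatic endothelial, macrophage, neutrophil, fibroblast and pericyte, and T cell markers 1 of 3, 2 of 4, 2 of 4, 1 of 6 and 2 of 4 fell and none rose, and none of 3 keratinocyte markers passed. Their part in the ligand values was not tested.

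Across all tumors, the genes whose deviations from the group mean followed Vegfa most closely included 4 of the HIF target list among the first 5. By Pearson r over log2(TPM + 1) they were Ero1l (0.845), Slc2a1 (0.843), the collagen prolyl hydroxylase gene P4ha2 (0.826), Bnip3 (0.823) and P4ha1 (0.818), out of 17427 genes compared. The median r of the 17 HIF target genes with Vegfa was 0.703, against 0.034 for all genes. For Pgf the closest were the early response gene Ier3 (0.707), Slc2a1 (0.70), the lipid droplet gene Hilpda (0.693), Adm (0.668) and Vegfa itself (0.663), and the HIF list had a median of 0.503.

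By these deviations within groups Vegfb and Vegfc tracked that list less. The HIF list had a median r of 0.249 with Vegfb, where all genes had 0.239, and of 0.071 with Vegfc. The closest genes to Vegfb were Spg7 (0.726), Pip4k2c (0.719), Josd1 (0.701), Sympk (0.687) and Atg2b (0.686). Those closest to Vegfc were Sox4 (0.470), Fermt2 (0.464), Os9 (0.444), Adam10 (0.437) and Avl9 (0.435), and no gene of the 17427 exceeded 0.470. These values describe tumors that share a composition and a scale within each library, and tumors of a group share a model.

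Over the 36 model-by-group means, which follow differences between models most of all, other genes came first. They were Egln1 (0.726), Rnf19a (0.701), Pik3cb (0.683), Stk38l (0.678) and Gm10566 (0.678) for Vegfa, and Nceh1 (0.891), Vat1 (0.866), Akap2 (0.865), Mtx1 (0.834) and Txnl4b (0.824) for Vegfb. They were Gm22 (0.870), Maml1 (0.866), Dclk1 (0.840), Nkain1 (0.834) and Adamts4 (0.832) for Vegfc, and Flywch2 (0.744), CAAA01194877.2 (0.722), Gm43481 (0.695) and Tmem59 (0.694) for Pgf. None of these was among the 5 closest by deviations within groups. The means share models, each of which enters 3 times.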

How the data were processed

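Expression was measured by RNA sequencing of rRNA-depleted total RNA from each tumor. According to the study's methods and the submitters' processing notes, reads were converted with bcl2fastq, trimmed with Trimmomatic 0.36, aligned with STAR 2.5.2b and quantified with RSEM 1.2.31 on GRCm38 with Ensembl gene models, and the authors deposited TPM per gene. TPM divides by transcript length and by the library total, so abundant noncoding transcripts lower all other values, and depth is unknown. The strand setting and the sequencer of each tumor were not given in the sources used here. The replicates came from separately labelled tumors.

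Groups were taken from the sample labels. Values were used as log2(TPM + 1), and genes with a mean of at least 1 TPM in the fitted tumors were tested with limma 3.58.1 (R 4.3.3, eBayes with trend) and Benjamini-Hochberg adjustment over all genes, with a threshold of 0.05. 1 fit held the 72 day 8 tumors, 1 the 71 untreated tumors, 1 the 35 Base tumors, and each model was also fitted alone. A moderated F test of 11 contrasts compared the differences between models. Fold changes on the log2(TPM + 1) scale understate the change of low genes. The procedure was tested on simulated data. Tables and figures used Python 3.11.15, pandas 2.3.3 and matplotlib 3.10.9.

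Text names were given to the 4 ligands, the genes of 14 lists (80 genes; values for the receptors, Vegfd and VEGFC-processing genes, otherwise the 3 largest and 3 smallest changes), and the 5 genes most like each ligand, of which 1 is not reported here. The ligands and lists were chosen with earlier results of these data known. Alternatives were another pseudocount, other filters, upper-quartile and protein-coding rescaling, no trend, a replicate block, and leaving out tumors or models. Leaving out BNL and B16F10 together was chosen after seeing the data.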

Additional observations from a re-analysis of the deposited data

Results flagged for a closer look

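The LEN minus NT difference was not the same in all models for Vegfa (moderated F test in limma, adjusted p = 0.00165), Vegfc (adjusted p = 0.000218) and Pgf (adjusted p = 2.48e-06). The within-model differences ran from 0.10 in EMT6 to 1.53 in BNL for Vegfa, from -0.61 in Renca (in the fit over all models) to 1.08 in 4T1 for Vegfc, and from -1.33 in BNL to 1.55 in B16F10 for Pgf. In BNL, Pgf fell with LEN by 1.33 while Vegfa rose by 1.53, although both rose in B16F10, by 1.55 and 0.77.

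The NT minus Base difference was not the same in all models for Vegfa (adjusted p = 0.0158), Vegfb (adjusted p = 0.00102), Vegfc (adjusted p = 0.000699) and Pgf (adjusted p = 0.0249), of which Vegfb and Pgf did not pass after protein-coding rescaling (adjusted p = 0.0910 and 0.128). The within-model differences ran from -0.50 in BNL to 0.77 in B16F10 for Vegfa, from -0.32 in CT26 to 0.59 in KLN205 for Vegfb, from -0.91 in LL2 to 0.49 in MBT2 for Vegfc, and from -0.39 in Hepa to 1.15 in BNL for Pgf. Groups of 2 or 3 tumors were too small to look for a tumor far from the others of its group.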

How the results depend on the processing

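The mean Vegfa difference with LEN kept its direction and stayed past the threshold under every alternative run, at 0.64 to 0.69 with 1 tumor left out, 0.59 to 0.72 with 1 model left out and 0.57 without BNL and B16F10. Of the results on the means and F tests, 1281 values with 1 tumor left out stayed on the same side and 3 did not.

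With LEN, the F test of Vegfa gave adjusted p = 0.105 without BNL and 0.126 without BNL and B16F10. The mean of Vegfc was 0.22 with a pseudocount of 0.1 (adjusted p = 0.0568), 0.20 without BNL and B16F10 (adjusted p = 0.0525) and 0.16 without 4T1 (adjusted p = 0.0604). That of Pgf was -0.033 without B16F10 (adjusted p = 0.835) and 0.23 without BNL (adjusted p = 0.0427), and its F test gave 0.0577 without both, which left 1 of the 4 ligands past the F test in place of 3.

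For NT minus Base, the F test of Vegfa gave adjusted p = 0.0551 without BNL, 0.0730 without B16F10 and 0.181 without both. Vegfb had a mean of 0.075 (adjusted p = 0.0745) and an F test at 0.0910 after protein-coding rescaling, and means of 0.10 (adjusted p = 0.0611) without EMT6 and 0.095 (adjusted p = 0.0681) without KLN205. Vegfc had a mean of 0.15 (adjusted p = 0.0366) without LL2. The F test of Pgf gave 0.0690 with no filter, 0.104 with upper-quartile and 0.128 with protein-coding rescaling, 0.111 without BNL and B16F10, 0.131 without BNL, 0.0510 without EMT6, 0.0611 without Hepa, and 0.00638 to 0.0563 with 1 tumor left out, where leaving out 1 of 3 BNL tumors took it past 0.05. The cause was not tested.

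With a filter of 5 TPM, 2 ligands in place of 4 differed between models in Base, since Vegfc and Pgf were then not tested. Calls of ligands within models numbered 6 with LEN, 10 in the fit over all models and 2 with no filter (Vegfa and Pgf in BNL), and 6 for NT minus Base, 1 with no filter (Vegfb in EMT6) and 3 without the trend (Pgf in BNL, and Vegfb in EMT6 and KLN205). With the filter of 5 TPM, Vegfa was called higher with LEN in 4 models and Vegfb, Vegfc and Pgf in 1 each. For NT minus Base that filter called Vegfc higher in 1 model, the only 1 where it was tested. After protein-coding rescaling, NT minus Base was called higher in 1 model each for Vegfa, Vegfb and Pgf, and lower in 1 for Vegfa.

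Same-numbered tumors did not deviate together. Correlations ran from -0.080 to 0.078 over 20 NT and LEN pairs and from -0.146 to 0.101 over 25 Base and NT pairs, of which 1 exceeded 0.1. With the replicate block the Vegfa difference with LEN was 0.66, and 2444 genes were higher and 1817 lower, against 2371 and 1712 without it. TPM hides depth, so the error of values near 1 TPM, such as Vegfc in CT26 and RAG, is known only from the spread of 3 tumors.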
